A study of Mus musculus with 16 samples.

Results

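The genes described here are 9 that carry the insulin signal in muscle from its receptor to the kinase AKT and on to glucose uptake: Insr, Irs1, Irs2, Pik3r1, Pik3ca, Akt1, Akt2, Tbc1d4 and Grb10. They were chosen by name, as all array probes other than controls whose gene name in the scanner files is one of the 9, and not by any measured value. This gave 20 probes of 41174, for 8 of the 9 genes. No probe carried the name Irs2, and that gene was not analysed here. A filter on weak signal kept 17 of the 20 probes, for 7 genes, among 19398 probes in all.

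The RNA came from gastrocnemius, a calf muscle, of adult male C57BL/6N mice. Both groups had received a corn-oil-based high-fat diet (cHF), with lipid making up 35% of the diet, into which rosiglitazone, a drug that activates PPARγ, was mixed (10 mg per kg diet), and ate it for 8 weeks from 3 months of age. They differed in n-3 LC-PUFA, the long-chain marine fatty acids such as EPA and DHA, which as a concentrate took the place of 15% of the dietary lipid for 8 mice (cHF+F+ROSI) and were not added for the other 8 (cHF+ROSI). All mice were fasted for 10 h by day, re-fed Chow diet overnight and killed in the morning. The study pooled its Cy3-labelled samples as a common reference, and named a higher dose of rosiglitazone for the pool of its first set of arrays. Whether the pool used here held that dose is not clear. The RNA of each mouse was labelled with Cy5 and compared on 1 array with the Cy3-labelled reference pool. Values are log2 ratios of a mouse to that pool, and a difference is the cHF+F+ROSI mean minus the cHF+ROSI mean on this log2 scale. The question was whether adding n-3 LC-PUFA to rosiglitazone altered the transcripts of the insulin pathway in muscle of re-fed mice.

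Insulin binds its receptor, a tyrosine kinase encoded by Insr, which then phosphorylates the docking proteins IRS1 and IRS2. These recruit phosphoinositide 3-kinase (PI3K), a pair of a regulatory and a catalytic subunit, whose lipid product brings AKT to the membrane to be activated. In muscle, AKT phosphorylates TBC1D4 (AS160), which otherwise holds vesicles with the glucose transporter GLUT4 inside the cell. GRB10 is an adaptor that binds the receptor and restrains it. Most of this control lies in phosphorylation, which these arrays do not measure.

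The 16 arrays lay on 4 slides of 4 arrays, and on each slide the diets alternated by position (cHF+ROSI at 1 and 3, cHF+F+ROSI at 2 and 4), so position and diet cannot be told apart. Over the spots of an array the Cy5 signal was, at the median, 2.33 to 3.64 times background for cHF+ROSI and 2.98 to 3.46 times for cHF+F+ROSI. The lowest value was that of cHF+ROSI replicate 1. In the weaker Cy3 channel it ranged from 1.78 to 2.02. 

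On 3 arrays the background correction flattened the log2 ratios, most of all those of weak probes. On cHF+ROSI replicates 1 and 5 and cHF+F+ROSI replicate 5, between 13 and 19 spots lay far below their local background, beside 0 to 8 spots on the other 13 arrays. Over the kept probes below the median brightness, the log2 ratios of these 3 arrays had an interquartile range of 0.0221 to 0.0721, beside 0.296 to 0.467 on the other 13. With those spots set aside before the correction, it was 0.308 to 0.408 and 0.367 to 0.480. Brighter probes were also narrowed on the 3 arrays, with 0.166 to 0.351 beside 0.424 to 0.598 on the other 13. With the spots set aside these ranges were 0.339 to 0.484 and 0.424 to 0.65. On these 3 arrays a log2 ratio near 0 on a weak probe is thus no trait of a gene. Differences are given below as the fixed procedure gave them, and beside them the values with these spots set aside, an alternative chosen after the data were seen. It called 16 of 19398 probes (0.0825%) with an adjusted p under 0.05 in limma, and 10.4% passed 0.05 before adjustment.

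All 10 muscle markers were kept, with Cy5 signals at least 6794 times background. Of the 9 slow-fibre markers, all were kept, and their mean log2 ratio ranged from -1.36 to 0.68 (cHF+ROSI) and from -2.14 to 0.23 (cHF+F+ROSI), with cHF+F+ROSI replicate 2 lowest. The 8 adipocyte markers had mean log2 ratios from -0.92 to 0.23 (cHF+ROSI) and from -1.23 to 0.82 (cHF+F+ROSI). The median difference between the diets was -0.39 over the slow-fibre markers, 0.25 over those of adipocytes, -0.32 over 5 of Schwann cells and nerve, 0.17 over 4 of red blood cells and -0.15 over 7 of endothelium. It lay between -0.06 and 0.05 for muscle, fibroblasts and macrophages. No marker of any list had an adjusted p under 0.05 in limma, beside 0.0155% of all probes. For red blood cells, cHF+F+ROSI replicate 6 had a mean log2 ratio of 0.94, and the next mouse of its group was at 0.04. The part of these markers in the values below was not tested. In whole muscle, fewer cells of a type and less RNA per cell cannot be told apart.

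None of the member genes was called different between the groups. In limma with Benjamini-Hochberg adjustment over all 19398 probes, 0 of the 17 member probes were called, and the smallest adjusted p among them was 0.574, for a probe of Tbc1d4. In the whole series 3 probes were called, which is 0.0155%. Before adjustment, 1 of the 17 member probes had a p of up to 0.05, or 5.88%, beside 7.44% of all probes (5.17% of 41174 with no filter on signal). The count of 1 depends on the settings and ranged from 0 to 3 over the alternatives tried, where the share of all probes ranged from 4.23% to 10.6%. With the spots set aside it was 2, the 3′ probe of Tbc1d4 and the brightest of Akt1, and the smallest adjusted p among the members was 0.221 in limma. No member probe also reached a fold change of 1.2, the lower of the limits that the study used for its arrays, beside 1.49% of all probes. For none of the 17 did the values of the groups lie apart without overlap, beside 0.0773% of all probes. The values in each mouse show wide overlap for Irs1 and Pik3r1 and narrow ranges for Akt1 and Akt2.

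**Figure D1:**
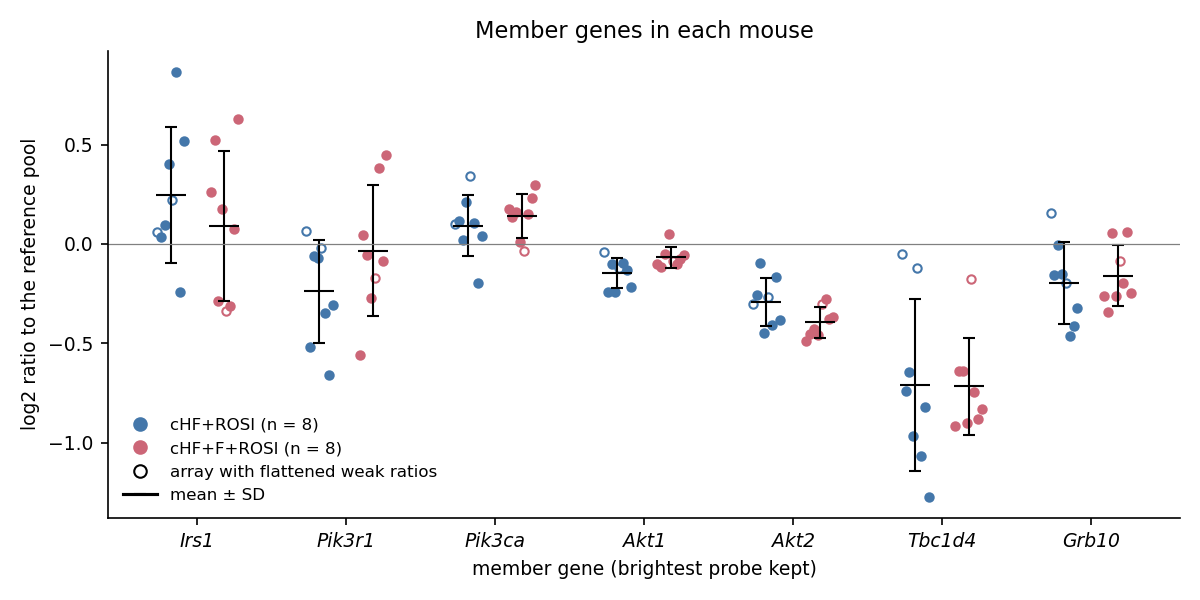
Log2 ratio to the reference pool of the 7 measured member genes (brightest probe kept) in each mouse (8 per diet), with 1 point per mouse and bars for the mean ± SD. Open points are the 3 arrays with flattened weak ratios. The points of Akt1 lie within a narrow band, those of Irs1 are widely scattered, the groups overlap for every gene, and for Tbc1d4 the open points lie apart from the others.

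RefSeq promoters (GRCm38.p6, a later build than that of the probes, so the coordinates cannot be joined) were at hand for 8 of the 9 genes, 14 promoters in all, and the 250 bases before each start were read. The GC box GGGCGG, read on either strand (CCGCCC), is a motif that SP1-like factors bind. It stood in at least 1 promoter of all 8 genes. By promoter, it stood in 8 of the 14 (57.1%), beside 32.7% of 32851 promoters. The 14 had a median GC content of 56.8%, beside 52.4% over all promoters, and its part in the matches was not tested. The forkhead motif GTAAACA (reverse TGTTTAC), which FOXO proteins bind, was in 1 of the 14, an Akt1 promoter, beside 3.17% of all. Forkhead factors are held out of the nucleus by AKT. A match is a description of these letters and not a site of binding. Stretches of the promoters of Akt1 (chr12:112674277-112674336, minus strand), Akt2 (chr7:27591423-27591482, plus strand) and Tbc1d4 (chr14:101609192-101609251, minus strand) are shown, since these genes had the smallest p among the members, with GGGCGG or CCGCCC in capitals, 60 bases each and 5′ to 3′ towards the gene:
Akt1: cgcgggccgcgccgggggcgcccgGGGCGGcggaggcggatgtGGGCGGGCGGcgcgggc
Akt2: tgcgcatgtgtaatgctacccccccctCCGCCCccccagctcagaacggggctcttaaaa
Tbc1d4: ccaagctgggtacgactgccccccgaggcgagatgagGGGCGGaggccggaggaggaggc
The match nearest to the start begins 13 bases before it in Akt1, 102 in Akt2 and 23 in Tbc1d4.

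The receptor itself was too weak to compare. Insr had 1 probe, at chr8:3159473-3159532 on the minus strand of the mm8 build that the scanner files use. Its Cy5 signal was 1.80 to 2.52 times background and was not well above background on any of the 16 arrays, so no fold change is given.

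Irs1, the main docking protein of the receptor in muscle, had the largest SD between mice among the brightest member probes. Its brightest probe, for the transcript AK141842, lies at chr1:82112141-82112200 on the minus strand. In the cHF+ROSI mice its log2 ratio ranged from -0.24 to 0.87 with a median of 0.16, and in the cHF+F+ROSI mice from -0.34 to 0.63 with a median of 0.13. High and low mice occurred in both groups. The difference was -0.15 (SE 0.16, adjusted p = 0.877 in limma, exact permutation p = 0.402), with a 95% interval from -0.50 to 0.19. The interval spans fold changes from 0.708 to 1.14, which reaches past 1.2-fold downwards. The SD between mice of a group was 0.361, larger than that of 95.4% of all probes. These values were -0.15 (SE 0.16) and 0.361 with the spots set aside. A weaker probe for NM_010570, some way upstream at chr1:82116013-82116072, gave a difference of 0.07 (SE 0.09) and followed the first with a correlation of 0.299 over the 16 mice, and of 0.667 with the spots set aside. The probes of this gene thus gave differences of opposite sign, neither beyond its error.

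Pik3r1 encodes the p85α, p55α and p50α regulatory subunits of PI3K and had 4 probes. The brightest, for NM_001077495 at chr13:102786510-102786569 on the minus strand, ranged from -0.66 to 0.07 (median -0.19) in the cHF+ROSI mice. In the cHF+F+ROSI mice it ranged from -0.56 to 0.45 (median -0.07). Among the cHF+F+ROSI values, 6 of 8 exceeded the cHF+ROSI mean. The difference of 0.21 (SE 0.14) was the largest among the brightest member probes, did not pass the test (adjusted p = 0.772 in limma, exact permutation p = 0.192), and had a 95% interval from -0.08 to 0.49. On the 4 slides it ranged from -0.16 to 0.43 and was above 0 on 3. It was 0.15 (SE 0.15) with the spots set aside and 0.31 (SE 0.15) without the 3 flattened arrays. The other 3 probes of the gene gave 0.11 (SE 0.08), -0.06 (SE 0.09) and -0.01 (SE 0.10). The probe at 0.11, for NM_001024955, lies nearest to the 3′ end at chr13:102781860-102781919.

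Pik3ca encodes p110α, the catalytic partner of p85α that insulin signalling uses in muscle. Its brightest probe, for AK029399 at chr3:32655899-32655958, ranged from -0.20 to 0.34 (median 0.10) in the cHF+ROSI mice and from -0.04 to 0.30 (median 0.16) in the cHF+F+ROSI mice. The cHF+F+ROSI range lay inside that of the cHF+ROSI mice. The difference was 0.05 (SE 0.07), with a 95% interval of the fold change from 0.938 to 1.14, and it was -0.13 with scale normalization and about 0 with median centring. It was 0.05 (SE 0.07) with the spots set aside and 0.12 (SE 0.06) without the 3 flattened arrays. The second probe gave 0.08 (SE 0.07), and 0.11 (SE 0.08) with the spots set aside.

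The kinases Akt1 and Akt2 are close relatives, and Akt2 is the one known for insulin-stimulated glucose uptake in muscle and fat, while Akt1 is better known for growth. The brightest probe of Akt1, spotted 10 times on each array at chr12:113101676-113101735 (minus strand), ranged from -0.24 to -0.04 (median -0.13) in the cHF+ROSI mice. It ranged from -0.12 to 0.05 (median -0.08) in the cHF+F+ROSI mice, and each of these 8 values exceeded the cHF+ROSI mean, although the groups overlapped. The share of all probes with such a count is not given. The SD within a group was 0.0648, below that of all but 2.06% of the probes, and the mean over 10 spots lowers it. The difference was 0.08 (SE 0.04), a fold change of 1.06, with an adjusted p of 0.690 in limma. It was 0.15 in the authors' table and 0.03 with median centring. A two-sided exact permutation test of this probe alone gave p = 0.0291, and the unadjusted limma p was up to 0.05 in 10 of 31 alternatives. The difference was 0.09 (SE 0.04, adjusted p = 0.448 in limma, exact permutation p = 0.00497) with the spots set aside. The difference was above 0 on each of the 4 slides, from 0.02 to 0.15. A second Akt1 probe, near background at 2.74 times, gave 0.04 (SE 0.06) and did not follow the first (r = -0.0363, and -0.278 with the spots set aside).

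Akt2 had its brightest probe at chr7:27347600-27347659 on the plus strand. Its log2 ratio ranged from -0.45 to -0.10 (median -0.28) in the cHF+ROSI mice and from -0.49 to -0.27 (median -0.40) in the cHF+F+ROSI mice, where 1 of 8 values exceeded the cHF+ROSI mean. The difference of -0.10 (SE 0.05, adjusted p = 0.696 in limma, two-sided exact permutation p = 0.0586) did not pass the test. It was -0.08 (SE 0.06, exact permutation p = 0.145) with the spots set aside, 0.13 with scale normalization between arrays and -0.02 in the authors' table and with Cy5 alone. A second probe at chr7:27345714-27345854 followed the first closely over the mice (r = 0.929) but differed by -0.03 (SE 0.07) between the groups, and by 0.00 (SE 0.07) with the spots set aside. The difference of the brightest probe was below 0 on 3 of 4 slides and ranged from -0.16 to 0.01. For Akt1 and Akt2 the 95% intervals of the brightest probes ran from 0.996 to 1.12 and from 0.860 to 1.01 as fold changes, and from 1.00 to 1.13 and 0.870 to 1.02 with the spots set aside. These intervals hold for those settings only.

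Within single mice, the brightest Akt2 probe stood lower relative to that of Akt1 in the cHF+F+ROSI group. The exception was scale normalization between arrays, where the contrast was 0.03. That setting kept the 3 flattened arrays and set no spots aside. With the cHF+ROSI mean set to 0, the log2 ratio of Akt2 minus that of Akt1 was 0.00 ± 0.12 (SD, n = 8) in the cHF+ROSI mice and ranged from -0.17 to 0.15. For cHF+F+ROSI it was -0.18 ± 0.10 (SD, n = 8) and ranged from -0.36 to -0.03, below 0 in 8 of 8 mice and below every cHF+ROSI mouse in 4. It was -0.22, -0.26, -0.01 and -0.25 on the 4 slides. The mean of this contrast combines the differences of Akt1 and Akt2 given above and is no separate result. No test was made of the contrast, which used only the brightest probe of each gene. The second Akt2 probe, not used for it, differed by -0.03 (SE 0.07) between the groups, and by 0.00 (SE 0.07) with the spots set aside. Under the other alternatives the contrast lay between -0.22 and -0.08. With the spots set aside it was -0.17 ± 0.10 (SD, n = 8), below 0 in 8 of 8 mice and below every cHF+ROSI mouse in 3. The same contrast of Pik3r1 minus Pik3ca was 0.00 ± 0.20 (SD, n = 8) for cHF+ROSI and 0.16 ± 0.30 (SD, n = 8) for cHF+F+ROSI, with 1 cHF+F+ROSI mouse below 0. Its mean was 0.10, with 3 mice below 0, once the spots were set aside.

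**Figure D2:**
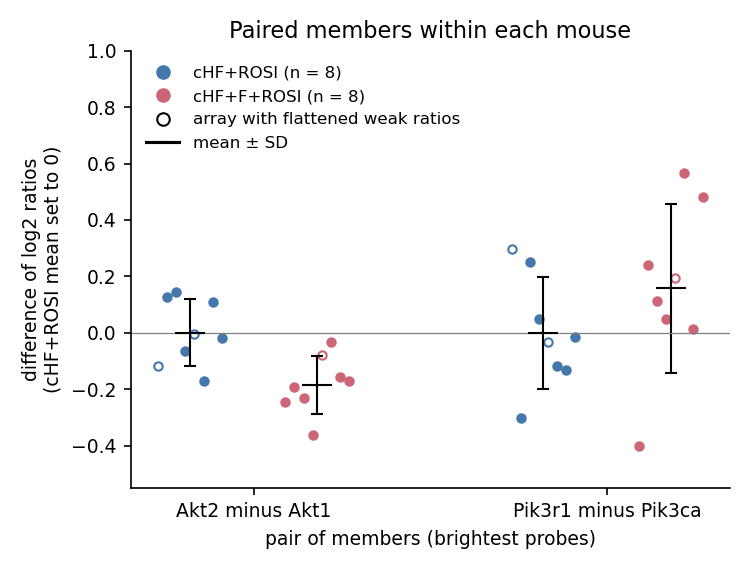
Difference of the log2 ratios of 2 member genes (brightest probes) in the same mouse, relative to the cHF+ROSI mean, for Akt2 minus Akt1 and for Pik3r1 minus Pik3ca, with 1 point per mouse and bars for the mean ± SD of 8 mice. All 8 cHF+F+ROSI mice lie below 0 for Akt2 minus Akt1, and 4 of them lie below all cHF+ROSI mice. Open points are the 3 arrays with flattened weak ratios.

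Tbc1d4, the AKT substrate that gates GLUT4, had 3 kept probes. Its probe nearest to the 3′ end, for NM_001081278 at chr14:100327554-100327613 (minus strand), ranged from -0.15 to 0.16 (median 0.03) in the cHF+ROSI mice and from 0.03 to 0.39 (median 0.16) in the cHF+F+ROSI mice. Each of the 8 cHF+F+ROSI values exceeded the mean for cHF+ROSI, a count given without its share over all probes, and the groups overlapped. The difference was 0.16 (SE 0.06), a fold change of 1.11 with a 95% interval from 1.02 to 1.22. This was the only member probe with an unadjusted p of up to 0.05 (limma p = 0.0179, adjusted p = 0.574, two-sided exact permutation p = 0.0169). The difference was above 0 on all 4 slides, from 0.07 to 0.21, and its unadjusted p was up to 0.05 in 30 of 31 alternatives, the exception being median centring. The size moved with the setting. It was 0.24 (SE 0.07, fold change 1.18, adjusted p = 0.221 in limma, exact permutation p = 0.00513) with the spots set aside, 0.22 without background correction and with an offset of 10, 0.25 with Cy5 alone and with median centring, 0.27 in the authors' table and 0.45 with the signals as Feature Extraction processed them, and lowest at 0.13 without cHF+F+ROSI replicate 6. The adjusted p stayed above 0.05 in all of these alternatives, the lowest being 0.190.

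The other kept Tbc1d4 probes lie upstream, at chr14:100364387-100364446 and, for XM_619279, at chr14:100362212-100362271. The first was the brightest and ranged from -1.27 to -0.05 (median -0.78) in the cHF+ROSI mice and from -0.91 to -0.18 (median -0.79) in the cHF+F+ROSI mice. Its difference was -0.01 (SE 0.16), and that of the second 0.08 (SE 0.14). The sign of the first was turned in 18 of 32 alternatives. The 3 flattened arrays lay between -0.18 and -0.05 on the brightest probe and the other 13 between -1.27 and -0.64. With the spots set aside the cHF+ROSI mice ranged from -1.27 to -0.58 (median -0.90) and the cHF+F+ROSI mice from -0.96 to -0.74 (median -0.89), and the 3 flattened arrays lay at -0.58 (cHF+ROSI replicate 1, the highest of all), -1.01 and -0.91. The differences were then 0.02 (SE 0.08) and 0.11 (SE 0.08), and without the 3 flattened arrays 0.13 (SE 0.09) and 0.20 (SE 0.09, adjusted p = 0.608 in limma). The correlation of both upstream probes over 16 mice was 0.961, and 0.791 with the spots set aside. The 3′ probe did not follow them (r = -0.0199 and 0.0628, and 0.144 and 0.117 with the spots set aside). Over the 13 mice of the other arrays, as reported, the 3′ probe correlated at 0.599 with the brightest. A further probe, for AK042979, was not well above background on any array.

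**Figure D3:**
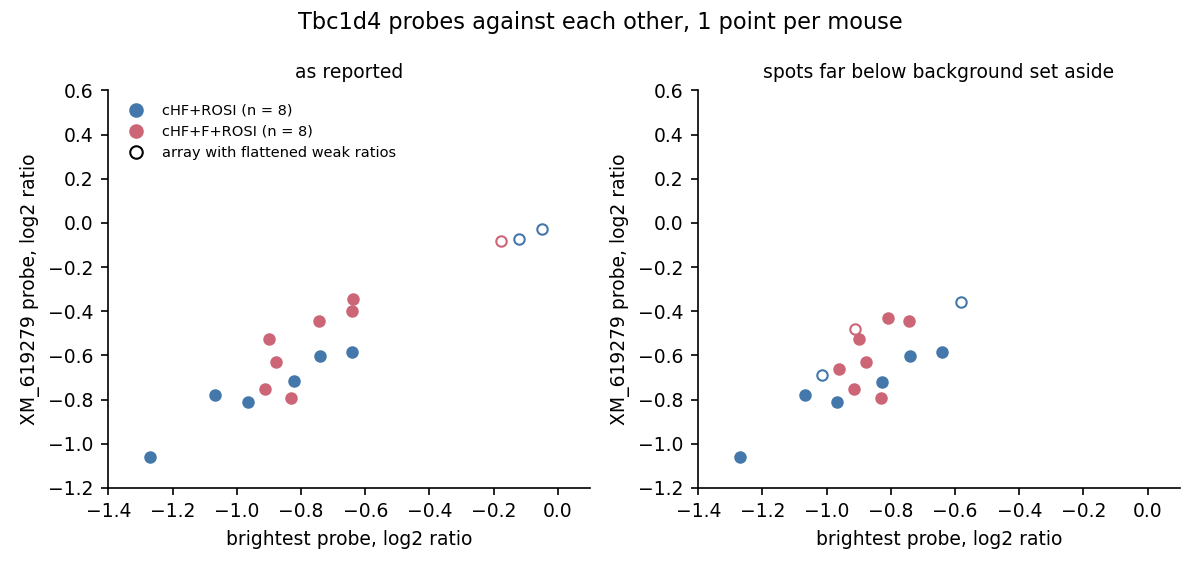
Log2 ratio of the XM_619279 probe of Tbc1d4 against that of its brightest probe, with 1 point per mouse, coloured by group and open for the 3 arrays with flattened weak ratios. On the left, as reported, the open points lie apart near 0, and on the right, with spots far below their local background set aside, they lie within or next to the cloud of the other mice.

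Grb10, the inhibitory adaptor at the receptor, had its brightest probe at chr11:11830965-11831024 on the minus strand. It ranged from -0.46 to 0.15 (median -0.18) in the cHF+ROSI mice and from -0.34 to 0.06 (median -0.22) in the cHF+F+ROSI mice, with the cHF+F+ROSI range inside the other. The difference was 0.03 (SE 0.09, limma adjusted p = 0.962), and -0.04 with scale normalization and about 0 with median centring. It was 0.04 (SE 0.09) with the spots set aside. A second probe at chr11:11870574-11870633 gave -0.07 (SE 0.06), -0.11 (SE 0.06) with the spots set aside, and -0.27 (adjusted p = 0.262 in limma) with the signals as Feature Extraction processed them. A further probe was well above background on 2 of the 8 cHF+F+ROSI and 1 of the 8 cHF+ROSI arrays and was left out.

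Over the 7 brightest member probes, 4 differences were above 0 and 3 below, and their median was 0.03, beside 0.00 over all 19398 probes. Over the 17 kept probes, 10 were above 0 and 7 below. The range of the 7 was -0.15 to 0.21. Among all probes the median absolute difference was 0.05 and the 95th percentile 0.21. With the spots set aside, 5 of the 7 differences were above 0, with a median of 0.04 and a range of -0.15 to 0.15, and the percentile was 0.22.

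**Figure D4:**
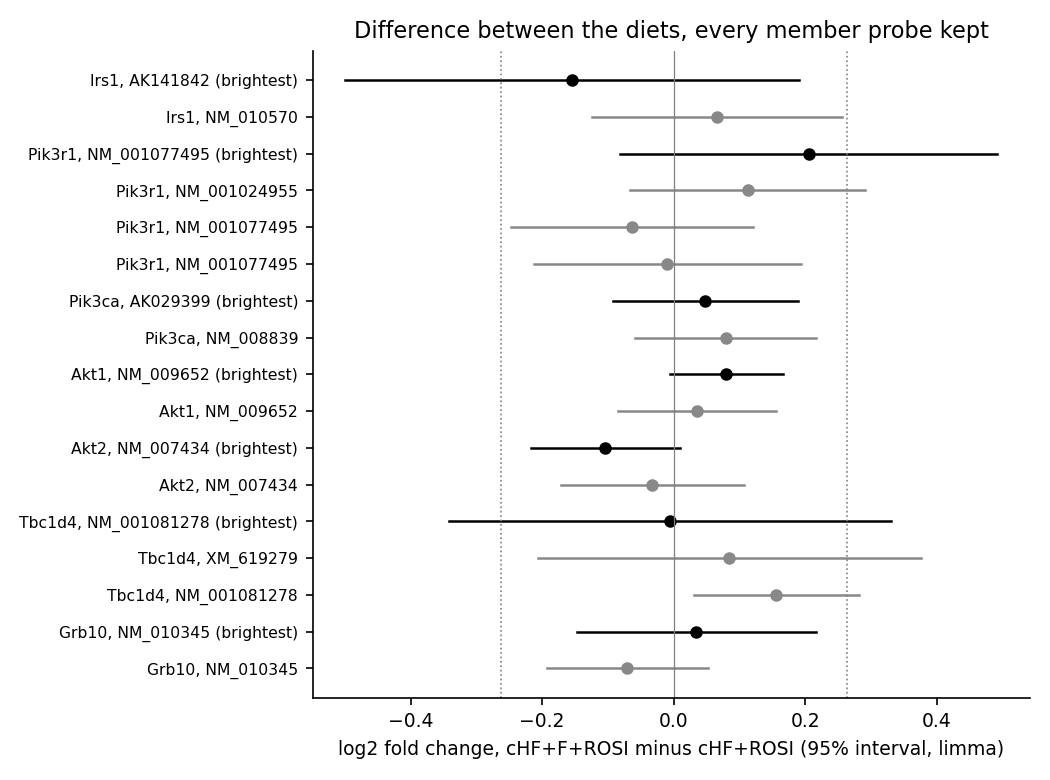
Log2 difference between cHF+F+ROSI and cHF+ROSI mice (8 mice each) for each of the 17 kept member probes, with its 95% interval from limma. Black marks the brightest probe of a gene and grey the others, and dotted lines mark a fold change of 1.2 in either direction. The interval lies above 0 for 1 probe, the 3′ probe of Tbc1d4, and the intervals of the brightest Irs1, Pik3r1 and Tbc1d4 probes reach past 1.2-fold.

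The correlation of deviations from the group means over 16 mice was read with the spots set aside. Between the brightest probes of the 7 genes it ranged from -0.547 (Akt2 with Irs1) to 0.651 (Grb10 with Tbc1d4), with a median of 0.0779 over 21 pairs. The latter was 0.503 without the 2 mice farthest from the median of Grb10. Over all 122 pairs of kept probes of different genes, 4 had a correlation above 0.6, beside 10 without setting spots aside. Of the 4, 1 stayed above 0.6 without the 2 mice farthest from the median of 1 of its probes. The lowest of the 122, -0.659, was that of the brightest Irs1 probe with the XM_619279 probe of Tbc1d4. The highest, 0.732, was that of the weaker Grb10 probe with the XM_619279 probe of Tbc1d4. These values share arrays, reference and brightness, and are a description.

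The 2 genes most like each member were picked as the highest correlations among 19310 probes with a value on every array, and their correlation is given first as picked and then with the spots set aside. For Akt2 they were Zfp93 (r = 0.914, then 0.911) and Morf4l1 (0.913, then 0.819). For Akt1 they were Atp5j (0.838, then 0.755) and Rab1 (0.832, then 0.761). Those of Pik3r1 were Musk, the receptor kinase of the neuromuscular junction (0.870, then 0.808), and Npc1 (0.865, then 0.794). Pik3ca was most like TC1646108 (0.840, then 0.837) and Srf (0.828, then 0.821), Irs1 like TC1582889 (0.897, then 0.826) and Txlna (0.894, then 0.760), and Grb10 like Ank3 (0.872, then 0.888) and NAP115124-1 (0.864, then 0.901). For Tbc1d4 they were Zfp191 (0.975, then 0.773) and Tbc1d20 (0.973, then 0.809). Picked anew with the spots set aside, only Zfp93, TC1646108 and NAP115124-1 stayed among the 2 genes most like their member. The pick for Tbc1d4 was then Hoxc10 (0.856) and Etf1 (0.841), and that for Pik3r1 was Ptpn1 (0.897) and Hoxa10 (0.887). Irs1 was then most like Rbm12b (0.904) and Gprc5c (0.895), and Akt1 like Vsig2 (0.839) and Cd300lg (0.819).

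Other genes of the pathway were described from 7 lists of 88 genes, of which 80 had a kept probe, with the brightest probe standing for each gene. In limma 0 of the 80 had an adjusted p under 0.05 (1 with the spots set aside, Trib3), and for 8 (10%) the unadjusted p was at most 0.05, of which 6 were higher and 2 lower in the cHF+F+ROSI mice. The share over all probes was 7.44%, with 3.49% higher and 3.95% lower. The median difference over the 80 was -0.01, and it lay between -0.04 and 0.20 over the 7 lists. The list at 0.20 held 2 kept forkhead factors. Of these, Foxo1 had 0.36 (SE 0.23, exact permutation p = 0.189) on its brightest probe and 0.57 on another.

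**Figure D5:**
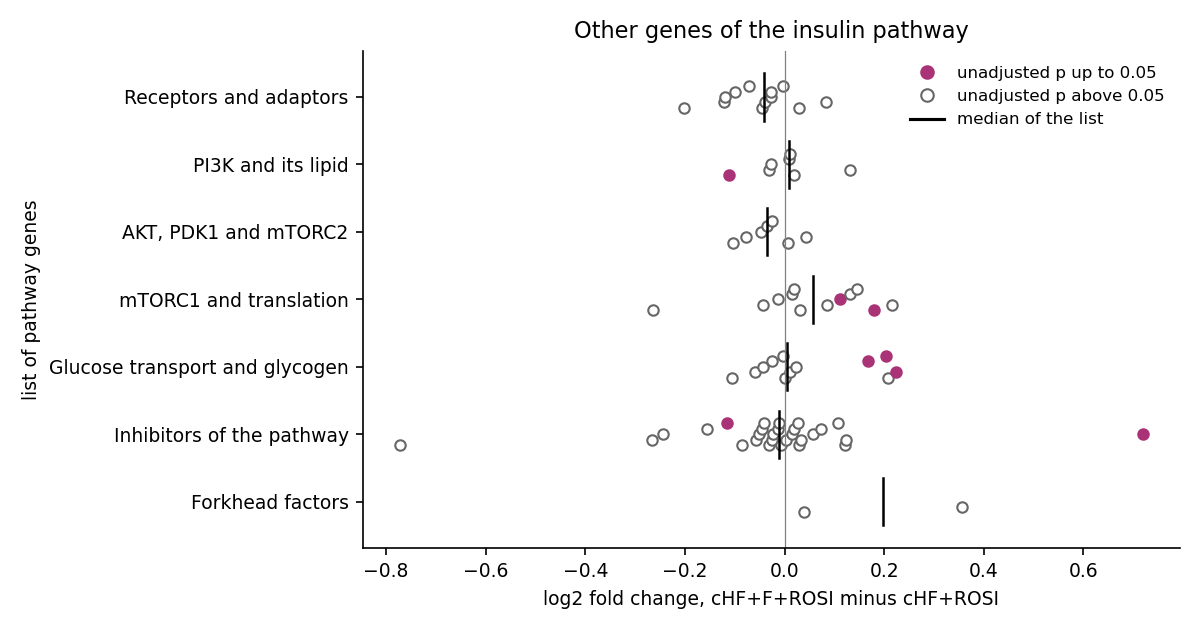
Log2 difference between cHF+F+ROSI and cHF+ROSI mice for 80 other genes of the insulin pathway, 1 point per gene, grouped by list, with a black bar at the median of each list. Filled points have an unadjusted p of up to 0.05, and the point farthest to the right, at 0.72, is Trib3.

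Among the inhibitors of the pathway (28 kept genes, 1 higher and 1 lower before adjustment), Trib3 had the smallest p. It encodes a pseudokinase that binds AKT and dampens its activation. Its log2 ratio ranged from -0.18 to 0.19 (median 0.08) in the cHF+ROSI mice and from 0.18 to 1.58 (median 0.82) in the cHF+F+ROSI mice, so that the groups overlapped by a single pair of mice. The difference was 0.72 (SE 0.15), a fold change of 1.65, with an adjusted p of 0.149 in limma (exact permutation p = 0.000466). It was 0.84 (SE 0.14) with the spots set aside, with an adjusted p of 0.0241 in limma. The adjusted p was also under 0.05 in 4 further alternatives (0.0186 to 0.0297), those of the authors' table, Cy5 alone, the signals as Feature Extraction processed them and no background correction. Over all alternatives it ranged from 0.0186 to 0.301. A second probe gave 0.15. The largest difference in size within this list was that of Ddit4, an inhibitor of mTORC1, at -0.77 (SE 0.48, exact permutation p = 0.176), which was widely spread in both groups and did not pass the test. Ppp2ca, the catalytic subunit of the phosphatase PP2A that removes phosphate from AKT, had -0.12 (SE 0.05, exact permutation p = 0.0401).

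In the list of glucose transport and glycogen (12 kept genes, 3 higher and 0 lower before adjustment), Slc2a4 (GLUT4) ranged from 0.13 to 0.66 (median 0.55) in the cHF+ROSI mice and from 0.44 to 0.83 (median 0.76) in the cHF+F+ROSI mice. Its difference was 0.22 (SE 0.08, adjusted p = 0.571 in limma, exact permutation p = 0.0214), and -0.06 with scale normalization. Rab10, a small GTPase on GLUT4 vesicles that TBC1D4 switches off, had 0.20 (SE 0.08, exact permutation p = 0.0196), and its other probes had 0.14 and 0.15. Lnpep, an aminopeptidase carried in the same vesicles, had 0.17 (SE 0.08, exact permutation p = 0.0525) on its brightest probe and -0.01 on another. None of the 3 passed the adjusted threshold.

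In the list of mTORC1 and translation (12 kept genes, 2 higher and 0 lower before adjustment) were Tsc1 and Tsc2, the partners of the complex that AKT inhibits to release mTORC1. Tsc1 had 0.18 (SE 0.06, adjusted p = 0.461 in limma, exact permutation p = 0.00622) on its brightest probe and 0.04 and -0.04 on the others. Tsc2, with 1 probe, had 0.11 (SE 0.05, exact permutation p = 0.0207), and about 0 with scale normalization. Of the 7 kept PI3K genes, Pik3r3, the p55γ regulatory subunit, had -0.11 (SE 0.05, exact permutation p = 0.0350), and none of the 12 receptors and adaptors or of the 7 genes of AKT, PDK1 and mTORC2 had an unadjusted p of up to 0.05.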

How the data were processed

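Muscle RNA was measured on 16 two-color arrays, 1 per mouse and 8 per diet, without dye swap. The authors deposited spot intensities from Feature Extraction (10.5.1.1 per the file headers, 10.5.5.1 in the submitters' processing notes), and a table of normalized log2 values. Its scale was checked against differences between the cHF+ROSI arrays, with slopes of 1.00, and its cHF+F+ROSI columns name no single mouse. Median signals were background-corrected with normexp (offset 50). Control spots and flagged outlier spots were dropped, as were spots whose signal averaged less than 2 times background in either channel over the arrays. Loess was then run on the log2 ratios of every array, and replicate spots were averaged. The offset makes fold changes of weak probes smaller. On 3 arrays, which held a few spots far below their local background, normexp flattened log2 ratios, most of all those of weak probes. The differences were therefore repeated with spots more than 50 below their local background set aside and, separately, without those arrays. Both alternatives were chosen after the data were seen. Diets were tested with limma 3.58.1 (lmFit, eBayes; R 4.3.3), p-values were adjusted over 19398 probes by Benjamini-Hochberg, and single probes were also tested by two-sided exact permutation over 16 mice. The brightest kept probe stood for a gene. The steps were tested on simulated data. No simulated signal lay below its local background, so that test could not show the flattening seen on the 3 arrays. No arrays were identical.

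The members, the 7 lists and the tests were chosen with earlier results of these data known. Named genes were all members, the pathway genes with an unadjusted p of up to 0.05 and, for each member, the 2 genes most like it. Ddit4 and Foxo1 were named after their values were seen. Alternatives covered the background correction, scaling, filter, authors' table, slide and replicate number as blocks, and leaving out mice. Precision is limited by the number of arrays.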

Additional observations from a re-analysis of the deposited data

Results flagged for a closer look

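Among 40 groups of 8 values (20 probes in each of both diets), 4 held a mouse far from the other 7, where chance gives about 1 in 20. On the brightest Akt1 probe, cHF+F+ROSI replicate 4 was highest at 0.048, and the next mouse was at -0.05. On the Pik3r1 probe at chr13:102784708, cHF+F+ROSI replicate 1 was lowest at -0.74 against -0.38 for the next, and without it the difference between the diets was 0.0060 instead of -0.06. On the brightest Tbc1d4 probe, cHF+F+ROSI replicate 5 was highest at -0.18 against -0.64 for the next, beside 2 cHF+ROSI mice at a like level. These are the 3 arrays with flattened weak ratios, and with the spots far below their local background set aside the cHF+F+ROSI mice ranged from -0.96 to -0.74 on this probe. On the Tbc1d4 probe for AK042979, which was not well above background on any array, cHF+ROSI replicate 2 was highest at 0.28 against 0.00 for the next.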

How the results depend on the processing

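In all alternatives run, 0 member probes had an adjusted p under 0.05. The count of member probes with an unadjusted p of up to 0.05 (1 as reported) is given with the share of all probes in brackets. It was 0 with median centring (4.23%), 3 with Feature Extraction's processed signals (10.6%) and 3 in the authors' table (7.98%, with 18 member probes). It was 2 without background correction (10.3%), with scale normalization (4.99%), with the Cy5 channel alone (7.62%) and with array quality weights (8.67%). The methods' t-test also gave 2 (7.54%). Setting aside spots far below their local background gave 2 (10.4%), as did leaving out cHF+ROSI replicate 1 and cHF+F+ROSI replicate 2 together (6.28%). Without the 3 flattened arrays it was 3 (7.93%). These last 3 alternatives were chosen after seeing the data. Leaving out single mice gave 1 to 3 (6.08% to 10.2%). With a fold change of at least 1.2 as well, the count (0 as reported, beside 1.49% of all probes) was 2 with the processed signals. It was 1 in the authors' table and 0 to 1 without single mice. Among the 80 pathway genes, 1 (Trib3) had an adjusted p under 0.05 in 5 settings, those of the processed signals, Cy5 alone, the authors' table, no background correction and the spots set aside. The count with an unadjusted p (8) was 5 with an offset of 10 (7.03% of all probes), 2 with median centring (4.23%) and 5 to 10 without single mice (6.08% to 10.2%). The median over the member genes (0.03) was 0.092 in the authors' table, 0.058 with the mean of all kept probes, 0.11 without the 3 flattened arrays, -0.0026 with median centring and -0.0038 to 0.084 without single mice.

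Scale normalization was run with the 3 flattened arrays kept and with no spots set aside. Differences that turned sign were small, came with scaling or, for the brightest Tbc1d4 probe, also with leaving out those arrays. Their cause was not tested. With scale normalization they were 0.13 and 0.12 for the Akt2 probes, -0.038 for Grb10, -0.13 for Pik3ca, 0.032 for the brightest Tbc1d4 probe, -0.0040 for Tsc2, -0.057 for Slc2a4 and 0.030 for Akt2 minus Akt1. With median centring they were -0.0036 for Grb10, -0.0026 for Pik3ca, 0.0063 for the Pik3r1 probe at 102789708 and 0.029 for Tbc1d4. With the processed signals they were -0.026 for the weaker Akt1 probe, 0.0065 for the weaker Akt2 probe and 0.035 for Tbc1d4, and in the authors' table -0.058, 0.050 and 0.019, with -0.011 for the weaker Irs1 probe. Without background correction they were 0.0019 for the weaker Akt2 probe and 0.031 for Tbc1d4, and with Cy5 alone -0.0011 for the weaker Irs1 probe and 0.023 for Tbc1d4. With the mean of a gene's probes they were -0.018 for Grb10 and 0.079 for Tbc1d4, and for Tbc1d4 0.033 with array weights, 0.078 without both mice and 0.13 without the 3 flattened arrays, when the Pik3r1 probe at 102789708 had 0.035. With the spots set aside they were 0.020 for Tbc1d4 and 0.00090 for the weaker Akt2 probe. Without single mice the ranges were -0.0038 to 0.084 for Grb10, -0.092 to 0.0060 and -0.073 to 0.048 for the Pik3r1 probes at 102784708 and 102789708, and -0.085 to 0.089 for Tbc1d4.

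With the replicate block, 1 member probe kept a p of up to 0.05 (the 3′ Tbc1d4 probe, adjusted p = 0.586 in limma) and 0 of all probes had an adjusted p under 0.05, beside 3 as reported. The deviations of same-numbered mice correlated between -0.338 and 0.727, above 0.1 in 4 of 8 pairs, and 1 of 8 cHF+F+ROSI mice correlated best with its own number, so the numbers were not taken as pairs. Each slide was scanned once, so a scan block is the slide block. Weak signal limits Insr and 2 further probes.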
